A study of Homo sapiens with 36 samples.

Results

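Transcript levels after 4 h of the MEK inhibitor selumetinib (AZD6244) were compared with those of control cells in MDA231 (MDA-MB-231), an established human breast cancer line of the triple-negative kind. The comparison rests on 6 of the 36 arrays of the series, chosen by their titles: the 3 arrays of the 4 h group and the 3 arrays of the siCONTROL group, each lettered A, B and C. All of these cells had been reverse transfected with 10 nM of a non-targeting siRNA and were collected 96 h later. The treated cells had 1 uM selumetinib for the last 4 h of that time, and the controls had only the solvent DMSO. For comparison, the same siRNA and selumetinib for 24 h were used in MDA231, and control and 4 h groups of 3 arrays each in the breast cancer lines SUM159PT and BT549. Nothing in the labels tells if arrays A, B and C of a group came from separate cultures. Unless said otherwise, each p-value and SE below reflects the spread among arrays within groups, pooled over all 36 arrays, and that spread may be technical. For 24 arrays, all of SUM159PT or BT549, the title and the source name give different lines. The titles were followed, so values of either line hold only by title, while the mean over both lines is the same under either reading.

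In the ERK pathway, RAS activates RAF, RAF activates MEK, and MEK activates the kinase ERK. ERK phosphorylates transcription factors of the ETS family and their partners, which switch on immediate early genes such as EGR1 and FOS within minutes. It also induces its own restraints, the dual-specificity phosphatases that inactivate ERK and the Sprouty and SPRED proteins that act upstream of it. Transcripts of these feedback genes serve as a readout of the pathway's activity.

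The labelled line was compared with its markers in the control arrays, where the median probe stood at a log2 signal of 5.33. The mesenchymal and cytoskeletal genes VIM, CD44, MSN and CAV1 had control means of 12.15, 12.07, 12.09 and 12.03, and AXL and EGFR stood at 11.62 and 10.17. SPARC (5.14) was below the median probe and S100A4 (5.49) was close to it. Of 10 measured luminal markers only 3 were below the median probe, namely ESR1 (4.09), PGR (3.40) and CDH1 (4.30). The others were above it, among them KRT19 (11.41) and EPCAM (8.39). Of 11 measured blood and endothelial markers 10 were below the median probe and none was called after 4 h, and the exception in level was PECAM1 at 7.37.

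A set of genes that ERK is known to induce fell steeply in all 3 treated arrays, led by DUSP6, SPRY4 and EGR1, and a smaller set rose, among them PCDH18, ID3, PPARGC1A and TNFSF10. Across 17958 genes with a single symbol, 2798 (15.6%) were called at an adjusted p under 0.05 by limma with Benjamini-Hochberg adjustment. Of these, 200 (1.11%) were higher and 2598 (14.5%) were lower. A change of at least 1 on the log2 scale was reached by 11 of the higher and 112 of the lower genes. The median change over all genes was -0.13, and the changes of single genes are to be read against that shift. Fitted on the 6 arrays alone, where the spread within both groups is the only error, limma called 149 genes, 7 higher and 142 lower. Fitted on the 12 MDA231 arrays it called 475. Leaving out the 4 h array A gave 6573 calls, leaving out the 4 h array B 553, the 4 h array C 1050 and the siCONTROL array B 1501. The 200 rises became 116, 107 and 116 without the siCONTROL arrays A, B and C, and 642, 98 and 94 without the 4 h arrays A, B and C.

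The many small falls lay mostly on arrays B and C, which had a narrow signal range. The upper quartile of all probes was 7.95 on the 4 h array A, 7.48 on B and 7.66 on C, against 7.89 to 7.96 on the controls, and the interquartile range of B (3.49) was the lowest of the 36 arrays. That of C was 3.68, and the 4 h arrays A, B and C of SUM159PT, by title, had ranges of 3.59, 3.70 and 3.77, so a narrow range was not particular to these arrays. Array B lay below the controls by a median of 0.52 among genes whose control signal was between 7.31 and 8.10, array C by 0.33, and array A lay above them by 0.05. Among genes below 3.78 in the controls the median change over the 3 arrays was 0.02. Of the 1796 genes in that class 6 were called lower, against 538 of 1796 between 8.10 and 8.93. The share called lower thus depended on signal level, and a share over all genes is a low yardstick for lists of bright genes. Among the 2598 falls, array A was below all controls for 1334, B for 2596 and C for 2588. The median of these genes was -0.11 on array A and -0.68 over B and C. What gave arrays B and C their narrow range was not tested.

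**Figure D1:**
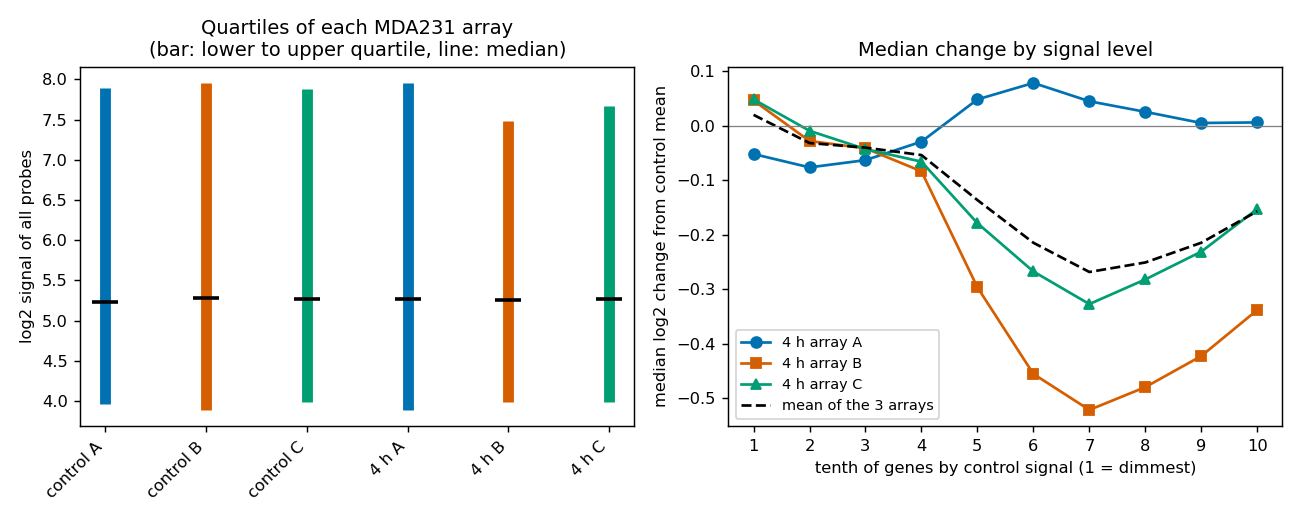
The left panel plots the lower to upper quartile (bar) and median (line) of log2 signal over all probes for each MDA231 control and 4 h array, and the right panel the median log2 change from the control mean in 10 equal classes of genes by control signal, from dim to bright, per 4 h array and over their mean. The bars of 4 h arrays B and C end at 7.48 and 7.66, below those of the other 4 arrays, and both arrays sink below 0 in the brighter classes while array A stays near 0.

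Each count was therefore also taken after a repeated quantile normalization, which gives all arrays the same distribution, and from array A alone against the 3 controls. The repeated normalization gave 1363 falls (7.59%) and 505 rises (2.81%), a share of 73.0% lower in place of 92.9%, with a median change of -0.04. It kept 1316 of the 2598 falls and 183 of the 200 rises, and it reversed the call of 0 genes. Aligning medians and interquartile ranges gave 1385 falls and 301 rises, or 82.1% lower. Counts of list members below are to be read against the shares over all genes, 14.5% lower as deposited and 7.59% after repeated normalization. Among bright genes the share lower as deposited was larger. Of 1796 genes in each class, 538 were lower between 8.10 and 8.93 in the controls, 500 between 8.93 and 9.84 and 429 above that. All 39 gene lists were chosen with earlier results of these data known, so their counts describe the response and do not test it. Array A alone gave 91 falls (0.507%) and 67 rises (0.373%), with its own spread assumed to be like that of the other groups. Size separated the falls: all 112 falls of at least 1 were called after repeated normalization, as were 870 of the 1097 between 0.5 and 1 (79.3%) and 334 of the 1389 smaller ones (24.0%). From array A alone the same classes gave 63, 28 and 0 calls. The 91 falls and 37 of the 67 rises from array A were called in the same direction under all 3 versions of the data. Genes called in the same direction under all 3 are named stable below. The 3 versions share array A, the control arrays and a spread pooled over all groups, so they are not independent checks. Of the 200 rises 7 kept their call on the 6 arrays alone, 31 on the 12 MDA231 arrays and 9 with array weights. Of the 2598 falls 142, 440 and 340 kept it.

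The MAP kinase phosphatases switch off ERK and its relatives by removing phosphates. Of 10 measured members 6 fell and 0 rose, with a list median of -0.47 against -0.13 over all genes. After repeated normalization 5 were lower, and 3 were lower from array A alone: DUSP6, DUSP5 and DUSP4. DUSP6, the phosphatase specific for ERK in the cytoplasm, read 11.55, 11.22 and 11.32 on control arrays A, B and C and 7.35, 6.36 and 6.78 on the 4 h arrays. All treated arrays lay far below all controls, array A included. Its change was -4.53 ± 0.21 (SE, n = 3 arrays a group; limma adjusted p 1.7e-16), to 4.33% of the control signal, the largest fall of any gene. DUSP5, a nuclear ERK phosphatase, went from 10.46 to 10.69 in the controls to 8.11, 7.26 and 7.50 in treated cells, a change of -2.93 ± 0.16. DUSP4, the nuclear phosphatase that the series also knocked down in other groups, read 10.15, 10.03 and 9.99 in controls and 8.11, 7.18 and 7.82 after 4 h, a change of -2.35 ± 0.17 (limma adjusted p 1.0e-11). Its 3 treated arrays were all below the controls. DUSP7 (-0.86) and DUSP1 (-0.59) fell mainly on arrays B and C, with array A only 0.29 and 0.17 below the control mean, and DUSP10 lost its call after repeated normalization.

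Sprouty and SPRED proteins restrain signalling between receptors and RAF. Of 7 measured members 6 fell, both as deposited and after repeated normalization, and 4 fell from array A alone. The list median was -1.12. SPRY4 read 9.92, 9.89 and 9.79 in controls and 5.99, 5.22 and 5.44 after 4 h. No treated array came near a control array, and the change of -4.32 ± 0.22 left 5.02% of the control signal (limma adjusted p 1.1e-15). SPRED2 (-1.37 ± 0.15), SPRED1 (-1.12 ± 0.15) and SPRY1 (-1.0 ± 0.11) were stable falls, and SPRY2 (-1.26 ± 0.20) fell but was not called from array A alone, where it was 0.89 below the control mean.

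**Figure D2:**
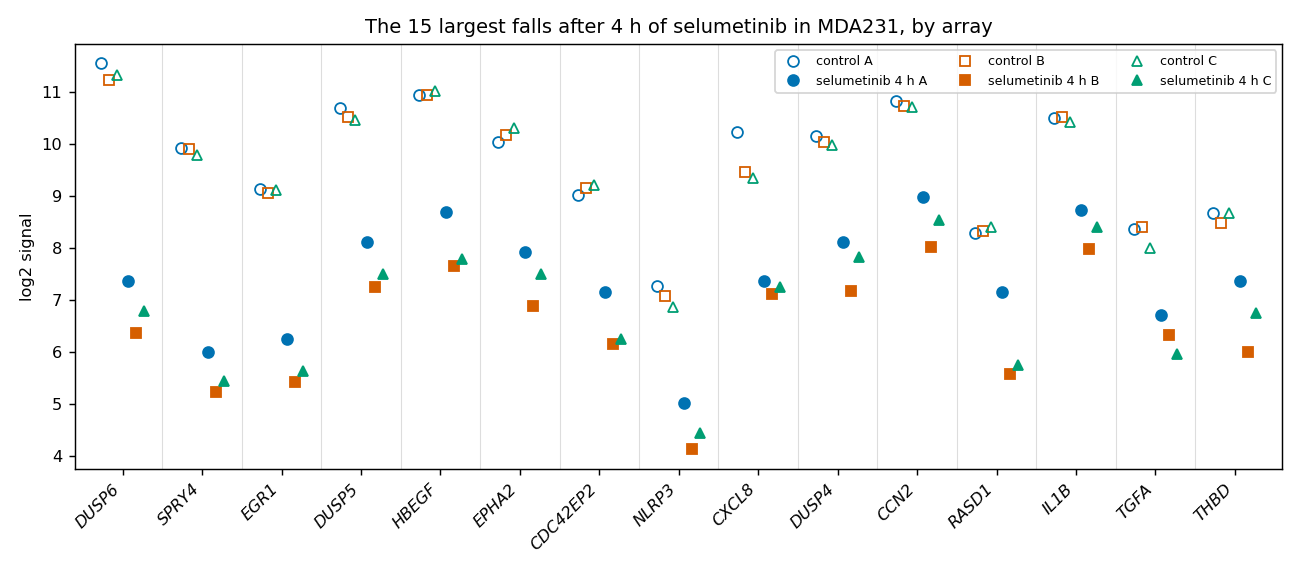
Log2 signal of the 15 largest falls among genes whose treated and control arrays do not overlap, with open symbols for the 3 siCONTROL arrays and filled symbols for the 3 arrays after 4 h of selumetinib, by letter. In every gene shown all 3 filled symbols lie below all open ones, and array B or C lies below array A.

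EGR1 led the falls among the immediate early transcription factors. Among 16 measured EGR, NR4A, IER and KLF genes 6 fell and 0 rose, with a median of -0.26, and the same number fell after repeated normalization. EGR1, a zinc finger factor induced by ERK through its promoter's serum response elements, read 9.13, 9.06 and 9.11 in controls and 6.25, 5.42 and 5.63 in treated cells. The change was -3.33 ± 0.17 (limma adjusted p 1.1e-15), to 9.93% of control. The groups were far apart. IER2, an immediate early nuclear protein, changed by -1.27 ± 0.16 and was the other member called from array A alone. NR4A2, an orphan nuclear receptor, changed by -1.15 ± 0.18, IER3 by -0.93 ± 0.16 and KLF6 by -0.74 ± 0.12.

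The AP-1 family pairs FOS, JUN and small MAF proteins on DNA. Of 12 measured members 5 fell and 0 rose (median -0.26), and after repeated normalization 4 were lower and 1, JUND, was higher. FOS read 6.45, 6.60 and 6.08 in controls and 4.69, 4.60 and 4.70 after 4 h, so that here array A fell as far as the others. Its change was -1.71 ± 0.15 (limma adjusted p 1.3e-09). FOSL1, the FOS relative that marks lines with active RAS signalling, stood at 10.05 to 10.07 in controls and at 8.77, 8.11 and 8.19 in treated cells, a change of -1.71 ± 0.16. MAFF, a small MAF protein, changed by -1.73 ± 0.19 and JUN by -0.95 ± 0.16. JUND moved the other way on array A, which read 8.50 against 7.65 to 7.79 in controls, but array B was at 7.54 and the change of 0.33 did not pass limma's test on the deposited values.

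ETS factors carry ERK signals to their target genes, and CIC is a repressor that ERK relieves. Of 10 measured members 7 fell (median -0.52), 6 after repeated normalization and 2 from array A alone, ELK3 (-1.20 ± 0.12) and ETS1 (-0.58 ± 0.09). ELK3, a partner of the serum response factor, read 10.72 to 10.86 in controls and 10.02, 9.29 and 9.44 in treated cells. ETV5 changed by -1.16 ± 0.16 and ETV1 by -0.49 ± 0.11. ETS2 read 9.53, 9.01 and 9.17 against 8.88 to 9.08 and did not pass on the deposited values, and it was called higher after repeated normalization and from array A.

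Stretches of 250 bases before the gene start were read from RefSeq (GRCh38.p14), which held one for 13861 of the 17958 genes. The EGR1 and MAFF stretches are shown because they hold matches to the motifs searched, and that of DUSP6 because it is the gene that fell most. Capitals mark, in EGR1 (chr5:138465229-138465478, plus strand), both CArG boxes, the sites of the serum response factor. In MAFF (chr22:38201744-38201993, plus strand) they mark TGACGTCA, the cyclic AMP response element, and CACGTG, the E-box bound by MYC and its relatives. DUSP6 (chr12:89352502-89352751, minus strand) holds no CArG box, TGACGTCA, TGANTCA (the AP-1 site), CCGGAA (a core bound by ETS factors) or CACGTG, so it has no capitals.
EGR1: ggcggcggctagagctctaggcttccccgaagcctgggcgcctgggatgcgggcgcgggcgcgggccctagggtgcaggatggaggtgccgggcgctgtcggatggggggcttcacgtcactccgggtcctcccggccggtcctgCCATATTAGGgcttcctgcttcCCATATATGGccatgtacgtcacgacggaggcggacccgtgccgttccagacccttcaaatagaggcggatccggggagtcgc
MAFF: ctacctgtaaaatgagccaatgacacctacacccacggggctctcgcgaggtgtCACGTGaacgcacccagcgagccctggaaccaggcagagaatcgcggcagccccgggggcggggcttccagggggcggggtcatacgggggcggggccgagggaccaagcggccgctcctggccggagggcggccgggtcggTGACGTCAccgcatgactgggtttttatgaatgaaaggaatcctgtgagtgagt
DUSP6: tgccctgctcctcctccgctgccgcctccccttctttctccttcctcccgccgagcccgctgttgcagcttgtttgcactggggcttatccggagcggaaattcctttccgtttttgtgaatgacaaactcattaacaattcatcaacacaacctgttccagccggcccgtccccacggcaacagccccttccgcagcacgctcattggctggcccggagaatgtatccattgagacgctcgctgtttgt
The CArG boxes of EGR1 began 105 and 83 bases before the start, and TGACGTCA began 54 bases before the start of MAFF. Searched on both strands, a CArG box was present in 1.18% of all 13861 stretches, TGACGTCA in 2.40%, TGANTCA in 4.86%, CCGGAA in 19.6% and CACGTG in 7.87%. Among the 68 stable falls with a stretch the shares in the same order were 2.94%, 2.94%, 7.35%, 8.82% and 7.35%, which is 2, 2, 5, 6 and 5 genes. Among all 2139 called falls with a stretch they were 1.36%, 2.85%, 4.25%, 26.0% and 9.26%. Among the 137 called rises with a stretch they were 6.57%, 0.73%, 5.84%, 9.49% and 8.76%, and the first of these is 9 genes. A match is a description of these letters, and no test was made on the shares.

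Ligands of the EGF receptor feed the pathway from outside the cell. Of 7 measured ligands 3 fell, also after repeated normalization and also from array A alone. HBEGF, heparin-binding EGF, read 10.94, 10.94 and 11.01 in controls and 8.69, 7.64 and 7.78 after 4 h. The change was -2.92 ± 0.18, to 13.2% of control (limma adjusted p 3.7e-13), and the groups were more than 2 log2 units apart. TGFA, transforming growth factor alpha, changed by -1.93 ± 0.17 and EREG, epiregulin, by -1.71 ± 0.16. The receptors moved less: of 14 measured ERBB, MET, IGF and TAM receptors and their adaptors 8 fell (median -0.37), 5 after repeated normalization and 0 from array A. EGFR changed by -0.46 ± 0.10 and read 10.02 on array A against 10.10 to 10.26 in controls. ERRFI1, the feedback inhibitor of EGFR, changed by -0.42 ± 0.09. Its sign turned when medians and interquartile ranges were aligned (0.00508). Among 21 other receptor kinases and ephrins 3 fell, 1 after repeated normalization, when 2 were higher. Over all genes 14.5% were lower as deposited and 7.59% after repeated normalization, so these falls were no more frequent than among all genes. The ephrin EFNB2 (-0.82 ± 0.12) was the lower one in both.

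Among 19 measured RAS, RAF, MEK and ERK genes and their close partners 5 were called lower and 0 higher, where 14.5% of all genes were lower. The list median was -0.23 against -0.13 over all genes. These are bright genes, with a median control signal of 9.04. Of all 1796 genes between 8.93 and 9.84 in the controls 500 were lower, with a median change of -0.21, so the list was close to genes of like signal. After repeated normalization 3 were lower, where 7.59% of all genes were. From array A alone 0 were lower, and without it 10. RASA2, a GTPase-activating protein of RAS, changed by -0.88 ± 0.14 and MKNK2, a kinase activated by ERK, by -0.80 ± 0.14. RRAS and RRAS2, called lower on the deposited values, were 0.10 and 0.01 above the control mean on array A. Of 12 JNK and p38 pathway kinases 4 fell, and 2 after repeated normalization, with MAP2K3 (-0.95 ± 0.19) first. From array A alone the list median was 0.04. Their median control signal was 8.65, and of all 1796 genes between 8.10 and 8.93 in the controls 538 were lower as deposited.

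Further genes known as ERK outputs fell almost throughout, where 14.5% of all genes were lower as deposited. Like every list here, theirs was chosen with earlier results of these data known. Its counts describe the response and do not test it. Of 22 measured members 21 were lower and 0 higher, with a median of -0.83; 19 were lower after repeated normalization and 6 from array A alone. EPHA2, an ephrin receptor, read 10.03, 10.17 and 10.30 in controls and 7.92, 6.89 and 7.50 after 4 h. Its change was -2.73 ± 0.19, to 15.1% of control (limma adjusted p 4.4e-12). MYC, the growth-promoting transcription factor, stood at 10.98, 11.01 and 11.08 in controls and at 10.24, 9.70 and 9.97 in treated cells, a change of -1.05 ± 0.10 to 48.2% of control. The groups did not overlap, and array A had a smaller fall, -0.79. The cytokine LIF (-1.83 ± 0.17), the pseudokinase TRIB1 (-1.78 ± 0.16), the pleckstrin-homology-like protein PHLDA1 (-0.87 ± 0.12) and the phosphate transporter SLC20A1 (-0.82 ± 0.10) were also stable. CCND1, cyclin D1, read 10.89, 10.95 and 11.11 in controls and 10.48, 9.92 and 10.13 after 4 h, a change of -0.81 ± 0.12, and was not called from array A alone.

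Inflammatory ligands were a second large group among the falls. Of 18 measured interleukins, colony-stimulating factors and their receptors 10 fell (median -0.56), 8 after repeated normalization and 5 from array A alone: IL1B, LIF, IL1A, CSF3 and IL11. IL1B, interleukin 1 beta, read 10.49, 10.52 and 10.42 in controls and 8.73, 7.98 and 8.40 in treated cells. The change was -2.11 ± 0.19, to 23.2% of control, with the groups well apart. CSF3, the granulocyte colony-stimulating factor, stood at 6.43 to 6.61 in controls and at 5.28, 5.29 and 5.36 after 4 h (change -1.20 ± 0.15), so the 3 treated arrays were level with each other. IL6 (-0.55 ± 0.15) lost its call after repeated normalization. Of 12 chemokines 3 fell under both normalizations. CXCL8, which attracts neutrophils, read 10.23, 9.47 and 9.34 in controls and 7.36, 7.12 and 7.25 after 4 h, a change of -2.43 ± 0.25 (limma adjusted p 2.3e-08). Control A was the highest array, and all treated arrays lay below all controls. CXCL2 (-1.06 ± 0.15) and CXCL3 (-0.89 ± 0.16) fell with it, and CXCL11 was the 1 chemokine called higher (0.37), from arrays B and C. NLRP3, the sensor of the inflammasome that releases interleukin 1 beta, went from 7.27, 7.08 and 6.87 to 5.01, 4.13 and 4.45. That change was -2.54 ± 0.15, and its treated values lie below the median probe. Among 14 NF-kB feedback genes and targets 8 were lower (median -0.42), 6 after repeated normalization and 0 from array A alone. TNFAIP3, the ubiquitin-editing inhibitor of NF-kB, changed by -1.22 ± 0.17 and TRAF1 by -0.94 ± 0.17.

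Regulators of survival moved in both directions. Of 16 measured BCL2 family genes 6 fell and 3 rose, and 4 and 3 after repeated normalization. MCL1, an anti-apoptotic member with a short-lived transcript, read 11.30, 11.35 and 11.26 in controls and 10.25, 9.92 and 10.19 in treated cells. Its change of -1.18 ± 0.09 (limma adjusted p 7.5e-11) left 44.0% of control and was present on all 3 arrays. BMF, a pro-apoptotic BH3-only member, read 5.27, 5.15 and 5.28 in controls and 6.49, 6.01 and 5.76 after 4 h. The groups did not overlap, and the change was 0.85 ± 0.14 (limma adjusted p 1.2e-04), with the control values below the median probe (5.33). BCL2L11 (BIM), another BH3-only member, read 5.86 to 6.02 in controls and 6.76, 6.01 and 6.24 in treated cells. It passed the test at 0.39 ± 0.12 (limma adjusted p 2.4e-02), but array B lay within the control range. HRK was called higher at 0.65 ± 0.18, with array A (6.43) only slightly above the controls (6.14 to 6.28) and array B at 7.43. The other falls were BCL2A1 (-0.80), BOK (-0.68), BAK1 (-0.67), BCL2L1 (-0.66) and PMAIP1 (-0.54), and none of them was a stable fall. Members that promote and that block cell death are both among them. The list median was -0.24 as deposited and -0.01 from array A alone. On the 6 arrays alone 1 family member was lower and 0 were higher, and with array weights 1 and 1.

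Cell cycle genes were called in both directions. Of 13 D cyclins, their kinases and CDK inhibitors 5 fell and 1 rose, and 4 and 1 after repeated normalization. CDKN1B (p27), an inhibitor of cyclin-dependent kinases, read 9.18, 9.16 and 9.24 in controls and 9.90, 9.50 and 9.82 after 4 h. It rose by 0.55 ± 0.11, to 146% of control (limma adjusted p 1.7e-03), with all treated arrays above all controls. On the 6 arrays alone and with array weights it was not called, and 0 members of the list were higher. CDKN1A (p21) went the other way, from 7.39, 7.42 and 7.43 to 6.68, 5.61 and 5.52, a change of -1.48 ± 0.20. Array A had the smallest fall (-0.74) and was not called alone. Over all genes 14.5% were lower as deposited and 7.59% after repeated normalization, and the falls among G1/S and G2/M genes were near or below those shares. Of 26 G1/S and DNA replication genes 3 fell at 4 h and 2 after repeated normalization, among them E2F3 (-0.83) and CDC25A (-0.77). The list median was -0.18 as deposited and -0.01 after repeated normalization. Without the 4 h array A, 12 of the 26 were lower, where 5931 of all 17958 genes were. At 24 h, against the same control arrays, 21 of the 26 were lower (10.3% of all genes were). Of 25 G2/M genes 2 were lower and 0 higher on the deposited values, and 0 and 2 after repeated normalization, when the median turned from -0.05 to 0.13. Without the 4 h array A, 7 of the 25 were lower. Of 22 MYC and ribosome biogenesis genes 9 fell and 1 rose, and 4 and 2 after repeated normalization. RRS1 (-1.09 ± 0.15), a ribosome assembly factor, led them with MYC.

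The rises were fewer than the falls, and the treated arrays differed in them. Of the 200 genes array A was above all controls for 150, B for 182, C for 199 and all 3 treated arrays for 131. Irrespective of a call, the 3 treated arrays were above all controls for 2.22% of genes and below them for 12.6%. PCDH18, a protocadherin, read 5.43, 5.50 and 5.30 in controls and 7.39, 6.57 and 7.03 after 4 h. It rose by 1.59 ± 0.16, the largest rise among the 17958 genes, with the groups more than 1 log2 unit apart. ID3, an inhibitor of basic helix-loop-helix factors, read 5.92, 6.11 and 6.01 in controls and 7.84, 6.87 and 7.45 in treated cells, a rise of 1.37 ± 0.17 (limma adjusted p 8.1e-07). PPARGC1A, a coactivator that drives mitochondrial genes, read 6.88, 6.85 and 6.70 in controls and 8.04, 7.79 and 7.83 after 4 h (rise 1.08 ± 0.20). Its 3 treated arrays were close to each other and above all controls. TNFSF10 (TRAIL), a death receptor ligand, read 7.31, 7.45 and 6.95 in controls and 8.47, 8.04 and 8.27 in treated cells, and rose by 1.02 ± 0.16. FILIP1L (1.05), the cytochrome CYP1B1 (1.02), the ETS factor ELF3 (0.98), AVPI1 (0.89) and the stress factor NUPR1 (0.74) were also stable rises.

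Of the 15 largest rises 5 were not called from array A alone, namely CES1, DND1, SPANXA2-OT1, HCG8 and H2BC5. CES1, a carboxylesterase, read 4.52, 4.77 and 4.13 in controls and 4.84, 7.24 and 5.67 after 4 h. Its rise of 1.44 ± 0.37 thus rested on arrays B and C. DND1, an RNA-binding protein of germ cells, read 5.19 to 5.39 in controls and 5.60, 6.39 and 7.39 in treated cells. H2BC5, a histone gene, was 8.05 on array A against 7.15 to 7.31 in controls, and its array A value alone did not pass. Small RNA genes showed a like split between arrays. Of 404 tested 18 were called higher (4.46%) and 13 lower, but the median of those 18 was 0.13 on array A and 0.88 over B and C, and 0 were called from array A.

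**Figure D3:**
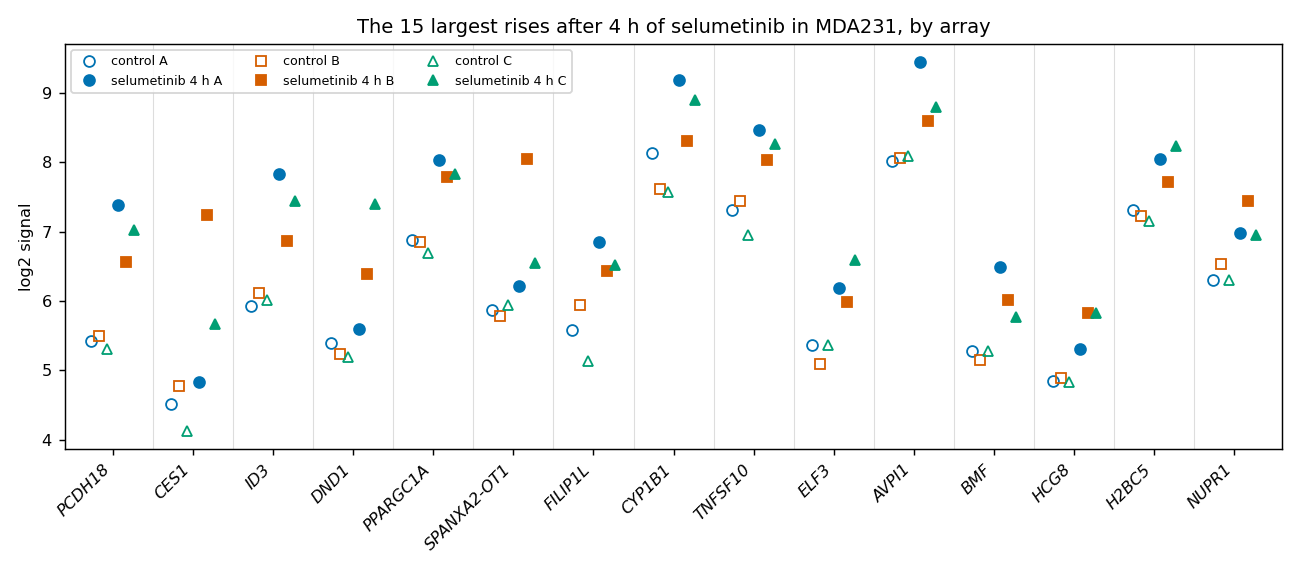
Log2 signal of the 15 largest rises among genes whose treated and control arrays do not overlap, with open symbols for siCONTROL and filled symbols for 4 h of selumetinib, by letter. For PCDH18, ID3, TNFSF10 and CYP1B1 array A is the highest of the treated arrays, whereas for CES1, DND1, SPANXA2-OT1 and HCG8 it lies closest to the controls.

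The lists on growth restraint and on ID genes held both rises and falls. Of 20 measured FOXO-related genes 3 rose and 2 fell on the deposited values, and 7 and 2 after repeated normalization, with medians of 0.03 and 0.21. The rises were ARRDC3 (0.43 ± 0.13), CITED2 (0.39 ± 0.13) and TXNIP (0.31 ± 0.09), the last a regulator of glucose uptake. Of 18 ID and BMP pathway genes 3 rose and 3 fell, and 3 and 2 after repeated normalization. The ID genes divided: ID3 and ID2 (0.62 ± 0.21, carried by array A at 5.46 against 4.04 to 4.34) rose, and ID1 read 9.93, 10.20 and 10.27 in controls and 9.98, 9.18 and 9.33 after 4 h, a change of -0.64 ± 0.14 that array A did not share. BAMBI, a decoy receptor, rose by 0.65 ± 0.21 and BMP2 changed by -0.90 ± 0.20. In the stress and metabolic lists, DDIT4 (0.44), DDIT3 (0.38), the oxygen sensor EGLN3 (0.67) and the sterol enzyme HMGCS1 (0.39) were stable rises by the definition above. These calls were lost in other settings. On the 6 arrays alone, on the 12 MDA231 arrays and with array weights, 0 members of these lists were higher. The sterol list also had 0 rises when any 1 control array was left out. Of 18 stress response genes 2 rose and 7 fell (5 after repeated normalization), of 19 glycolysis and hypoxia genes 1 rose and 5 fell (3 and 3), and of 13 sterol synthesis genes 1 rose and 0 fell (3 and 0).

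Genes of adhesion, matrix and cell identity changed in part. Of 15 YAP and TEAD genes 6 fell, 5 after repeated normalization and 2 from array A alone. CCN2, a matrix protein and classic YAP target, read 10.83, 10.72 and 10.71 in controls and 8.97, 8.02 and 8.53 after 4 h, a change of -2.25 ± 0.19 (limma adjusted p 9.2e-10). WWTR1, which encodes the YAP partner TAZ, changed by -0.97 ± 0.10. Of 14 Notch genes 4 fell under both normalizations, led by the ligand JAG1 (-1.29 ± 0.14), from 9.65 to 9.86 in controls to 8.78, 8.20 and 8.41. Of 20 matrix proteases and plasminogen genes 9 fell, 7 after repeated normalization, led by the urokinase gene PLAU (-1.19 ± 0.17) and ADAM19 (-0.97 ± 0.13). Of 13 integrins 5 fell under both, with ITGB4 (-0.73) first, and 0 from array A. Of 19 TGF-beta pathway genes 9 fell and 0 rose, and 6 and 3 after repeated normalization. The receptor TGFBR2, at 11.15 to 11.20 in controls and 10.43, 9.97 and 10.08 after 4 h, changed by -1.01 ± 0.10 and was the stable one. Among 14 EMT factors and cadherins 0 were called in either direction by limma on the deposited values and 0 after repeated normalization. Of 15 epithelial genes 1 fell, the tight junction gene CLDN1 (-1.27 ± 0.15), and 1 other was higher after repeated normalization. Of 14 stem-like markers 3 fell, SOX9 (-1.20 ± 0.18), CXCR4 and PROCR, and SOX9 alone was lower after repeated normalization. Collagens and other matrix genes gave 2 falls of 20, a share below the background of 14.5%.

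The counts for antigen presentation, interferon and lysosome genes depended on the arrays used, against a background of 14.5% of all genes lower as deposited, 7.59% after repeated normalization and 0.507% from array A alone. Of 16 antigen presentation genes 6 were lower as deposited, 3 after repeated normalization and 0 from array A, where HLA-DMA, B2M and TAP1 were 0.02, 0.01 and 0.10 above the control mean. Of 22 interferon genes 3 fell and 1, IFIT1 (0.52 ± 0.14), rose, and 3 and 3 after repeated normalization. Of 18 lysosome genes 4 fell, and 4 fell and 1 rose after repeated normalization. The lysosome genes had a median control signal of 9.44. Of all 1796 genes between 8.93 and 9.84 in the controls 500 were lower as deposited. From array A alone 0 interferon and 0 lysosome genes were lower. Without the 4 h array A, 12 antigen presentation, 8 interferon and 12 lysosome genes were lower, where 5931 of all 17958 genes were. The antigen presentation genes had a median control signal of 8.73. Of all 1796 genes between 8.10 and 8.93 in the controls 538 were lower as deposited. At 24 h, against the same controls, 12 interferon genes, 9 antigen presentation genes and 7 lysosome genes were higher, where 7.36% of all genes were. Of the line's own 10 markers 3 fell (FOSL1, PLAU and EGFR), and of 10 luminal markers 1 fell, XBP1 (-0.51).

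**Figure D4:**
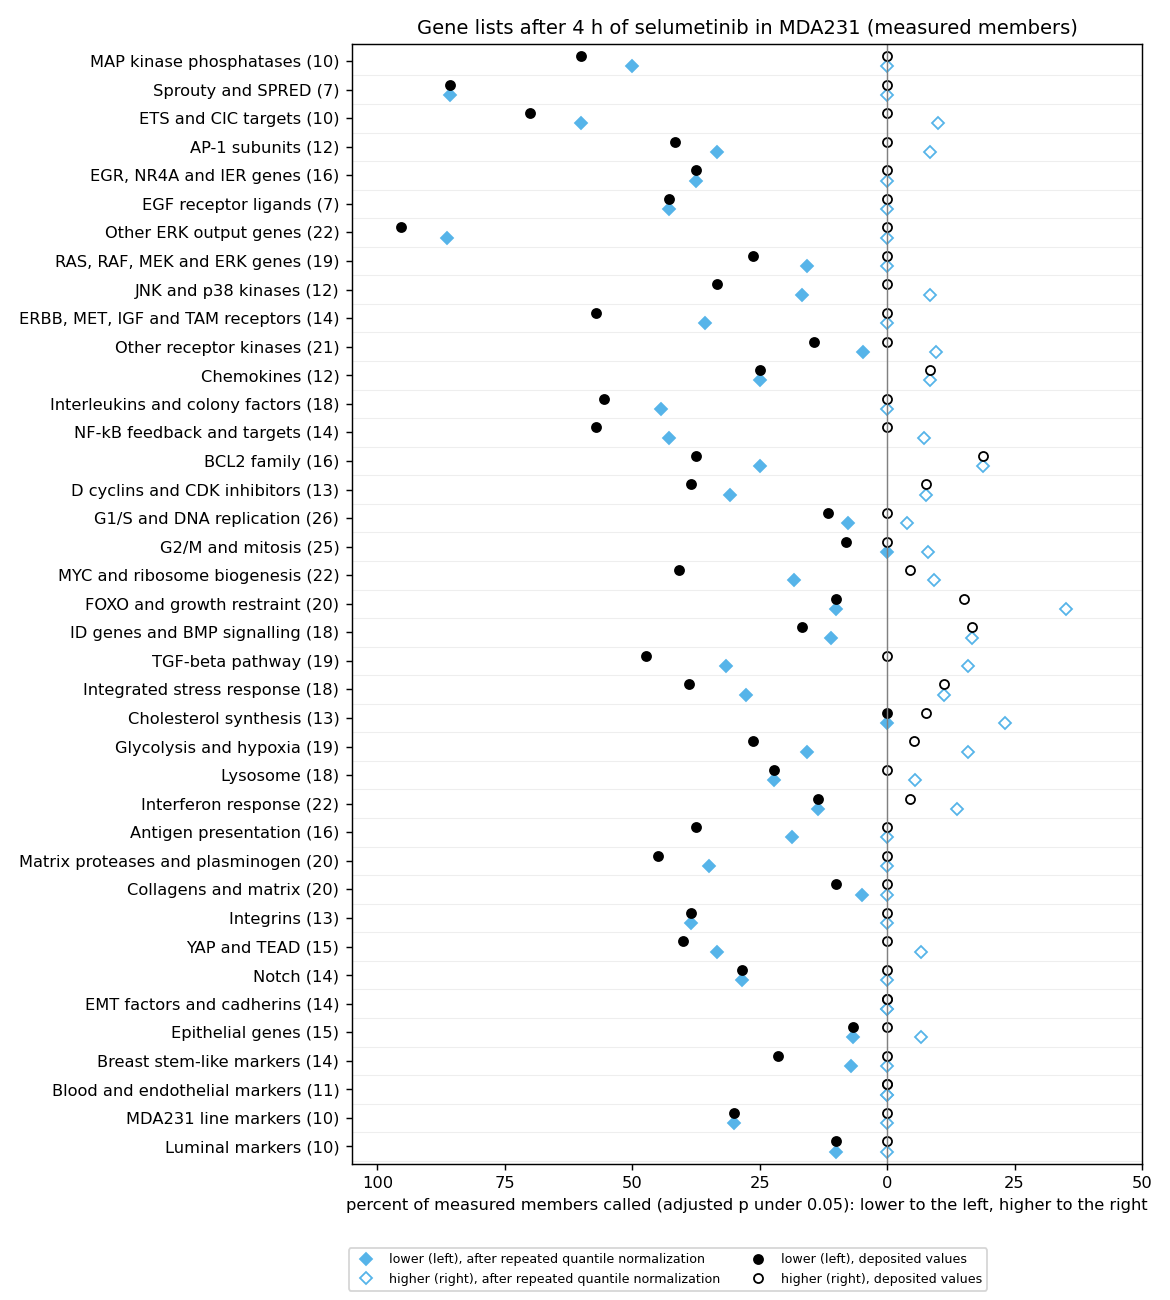
Percent of each list's measured members (number in brackets) called lower, to the left, and higher, to the right, by limma at an adjusted p under 0.05, with black circles for the deposited values and blue diamonds after repeated quantile normalization. The lists of ERK outputs and Sprouty and SPRED genes lie farthest to the left under both versions, and the FOXO list moves from 3 to 7 higher members of 20.

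Both MDA231 time points share their control arrays, so their values are only set side by side. DUSP6 was at -4.53 after 4 h and -3.16 after 24 h, SPRY4 at -4.32 and -3.26, EPHA2 at -2.73 and -1.47, and RASD1, a RAS-related GTPase, at -2.18 and -0.60. TNFSF10 was at 1.02 and 3.15, ID3 at 1.37 and 2.78, and ID1 at -0.64 and 0.93.

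The 4 h change of MDA231 was set against the mean 4 h change of SUM159PT and BT549 in the same limma fit, each line against its own controls. The narrow ranges of the SUM159PT 4 h arrays, given above, enter that mean, and their part in the differences was not tested. The difference passed for 388 genes (2.16%), of which 333 were more negative and 55 more positive in MDA231. The count was 810 after repeated normalization and 79 without the 4 h arrays B and C. It was 3947, 142 and 143 without the 4 h arrays A, B and C, and 214 and 172 without the siCONTROL arrays B and C of MDA231. Among the feedback genes the difference passed for 4 of 10 MAP kinase phosphatases and 2 of 7 Sprouty and SPRED genes, each lower in MDA231. DUSP6 and SPRY4 were called lower in all 3 lines: DUSP6 changed by -2.91 in SUM159PT and -1.60 in BT549, a difference of -2.27 ± 0.25, and SPRY4 by -2.39 and -1.79, a difference of -2.23. NLRP3 had the largest difference, -2.49 ± 0.18, with changes of -0.05 and -0.06 in the other lines. Its control mean in MDA231 was 7.07. The control signals of NLRP3, TGFA and RASD1 in the other lines are not given here. Whether a low signal there limited their change was not tested. TGFA (0.07 in both other lines), RASD1 (0.06 and -0.03), CDC42EP2 (-0.47 and -0.33), DUSP5 (-1.05 and -0.97) and HBEGF (-1.72 and -0.38) completed the 8 largest negative differences. IL11 (difference -1.08) and SOX9 (-1.61) passed too, and SOX9 was at 0.30 and 0.52 in the other lines, where it was not called. PHLDA1 and SPRY2 had differences of 0.01 and -0.09 that did not pass. Among the rises TNFSF10, at -0.04 and 0.03 in the other lines, differed by 1.03, CYP1B1 by 1.14, PCDH18 by 1.03, ID3 by 0.97, BMF by 0.79 and CDKN1B by 0.69. CDKN1B was called lower in SUM159PT (-0.46). For the counts of same sign that follow, the share over all genes was not taken, so they are descriptions only. Of the 91 stable falls 73 had the same sign in both other lines, 41 were called lower in SUM159PT (3.81% of all genes were) and 21 in BT549 (0.49%). Of the 37 stable rises 17 had the same sign in both, and 3 were called higher in each of SUM159PT (0.473%) and BT549 (0.161%).

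**Figure D5:**
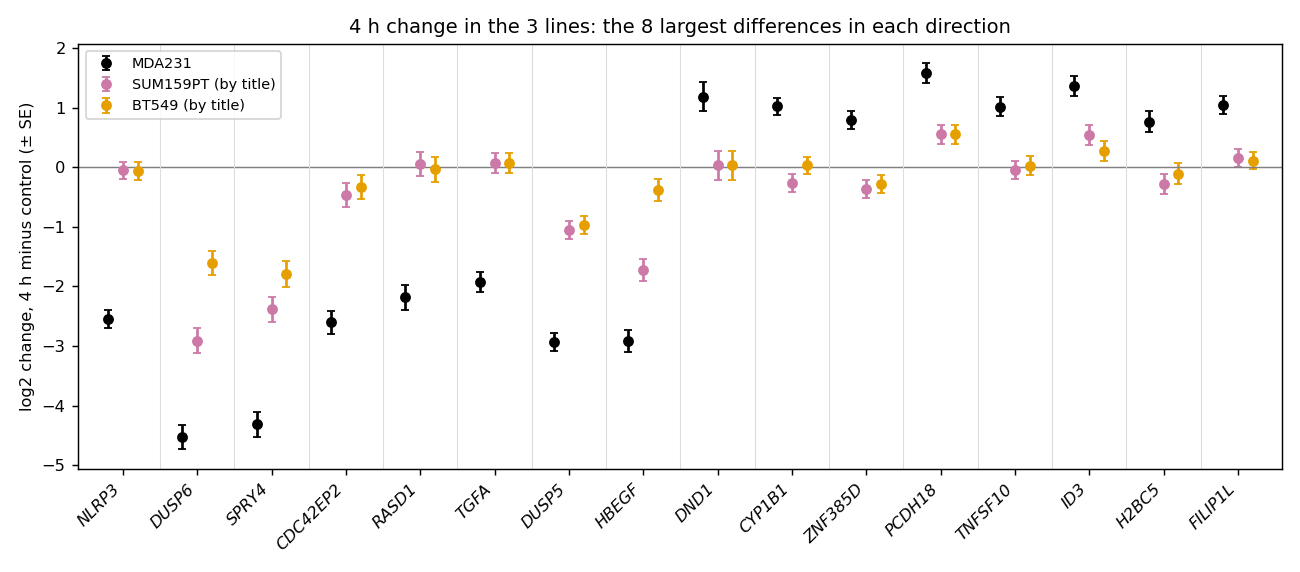
Log2 change after 4 h of selumetinib (points, with limma's SE as bars) in MDA231, SUM159PT and BT549 for the 8 largest negative and 8 largest positive differences between MDA231 and the mean of both other lines. For NLRP3, RASD1 and TGFA the other lines lie near 0, and for DUSP6 and SPRY4 they lie below 0 but above MDA231.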

How the data were processed

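Per the submitters' processing notes, the deposited log2 signals come from RMA as run by Affymetrix Expression Console 1.1, with options not given in the sources used here. The value table holds 33297 probes; 19181 have 1 gene symbol in the platform annotation, 2055 several and 12061 are unnamed here. Probes with 1 symbol were kept, and for 895 genes the probe of highest mean over the 36 arrays, leaving 17958 genes with dim ones included. limma 3.58.1 (R 4.3.3) fitted 12 group means over the 36 arrays, with 24 residual degrees of freedom. The procedure was tested on simulated data with independent noise, of equal spread in all groups for a gene. The simulation held no arrays of narrow range and no noisier group, so it does not show how these affect the calls. Adjusted p-values are Benjamini-Hochberg over all genes, called under 0.05, and SE is limma's. The spread is thus pooled over all groups. The 4 h arrays A, B and C of MDA231 had array weights of 0.133, 0.207 and 0.108, so the pooled SE can understate their own spread.

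The members and the 39 gene lists were chosen with earlier results of these data known. Named genes are the 15 largest falls and rises whose groups do not overlap (unnamed loci and small RNAs passed over), up to 6 called members of each list by smallest adjusted p, or 2 where none was called, and the 8 largest differences from the other lines in each direction. Markers given as control levels are list members. BCL2L11, BOK, PMAIP1, DDIT3, ETS2, JUND, IL6 and PHLDA1 are named outside the rule, chosen after their values were seen.

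Alternatives were the 6 or the 12 MDA231 arrays alone, a block for the letter, quantile normalization repeated over all arrays, aligned medians with and without interquartile ranges, array weights, a filter at the median probe level, other probe choices, a trended robust prior, stricter thresholds, each array left out, and arrays B and C left out. The number of arrays limits the precision.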

Additional observations from a re-analysis of the deposited data

Results flagged for a closer look

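In the test of the difference between lines, 388 genes changed by a different amount after 4 h in MDA231 than in the mean of SUM159PT and BT549 (limma, adjusted p under 0.05). The named ones are those with the largest differences on the log2 scale. MDA231 was lower by -2.49 for NLRP3, -2.27 for DUSP6, -2.23 for SPRY4, -2.21 for CDC42EP2, -2.19 for RASD1, -2.0 for TGFA, -1.92 for DUSP5 and -1.87 for HBEGF. It was higher by 1.15 for DND1, 1.14 for CYP1B1, 1.11 for ZNF385D, 1.03 for PCDH18, 1.03 for TNFSF10, 0.97 for ID3, 0.96 for H2BC5 and 0.91 for FILIP1L. DND1 rested on the 4 h arrays B and C (1.62 above the control mean, against 0.33 on array A). For ZNF385D the other lines moved down, by -0.35 and -0.28. When limma estimated a weight for each array, the 4 h arrays A, B and C of MDA231 had weights of 0.133, 0.207 and 0.108, among the 4 lowest of the 36.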

How the results depend on the processing

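The 2798 calls (200 higher, 2598 lower) and the 388 differences between lines (55 higher, 333 lower) moved by more than 1.5 times in total or in a direction as follows. The 6 arrays alone gave 149 (7 and 142), the 12 MDA231 arrays 475 (31 and 444), and array weights 349 (9 and 340), with 79 differences (2 and 77); the weights stopped short of their convergence tolerance. Repeated quantile normalization gave 505 higher and 1363 lower, with 810 differences (228 and 582), and aligned medians and interquartile ranges 1686 (301 and 1385), with 88 higher differences. A trended robust prior gave 505 lower differences. An adjusted p under 0.01 left 977 (50 and 927) and 117 differences (15 and 102), and a change of at least 1 left 123 (11 and 112) and 64 differences (9 and 55). Without the 4 h arrays B and C there were 158 calls (67 and 91) and 79 differences, 27 of them lower. Leaving out 1 array gave 553 to 6573 calls (94 to 642 higher, 455 to 5931 lower) and 142 to 3947 differences (22 to 326 higher, 94 to 3621 lower).

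The replicate letter as a block gave 2726 calls (207 higher, 2519 lower) and 316 differences (43 and 273). Deviations of same-lettered control and 4 h arrays from their group means had correlations of -0.10, -0.19 and -0.01 for A, B and C. The narrow range of the 4 h arrays B and C enters these deviations. The correlations therefore cannot decide whether the letters pair the arrays.

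Of the named genes 3 turned sign when medians and interquartile ranges were aligned: ERRFI1 (0.00508), HLA-B (0.079) and PTPN14 (0.043). From array A alone 8 did: RRAS (0.10), RRAS2 (0.0092), MAPK12 (0.022), AURKB (0.11), USP18 (0.034), HLA-DMA (0.020), B2M (0.0061) and TAP1 (0.10). The causes were not tested. An array left out leaves a group of fewer arrays, and for array A alone its spread is assumed to be that of the other groups.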

Other observations

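Among the 91 falls called under all 3 versions of the data were further immune genes, picked out after their values were seen. CD274 (PD-L1), a ligand of the T cell brake PD-1, had a mean log2 signal of 8.87 ± 0.15 (SD, n = 3) in controls and 7.08 ± 0.24 after 4 h, a change of -1.79. PDCD1LG2 (PD-L2), the other ligand, changed by -1.04 in MDA231, -0.81 in SUM159PT and -0.66 in BT549, and was called lower in all 3 lines. CD274 was likewise called lower in SUM159PT (-1.02) and BT549 (-0.89). The toll-like receptor TLR4 changed by -1.48 and the kinase IRAK2, which carries interleukin 1 and toll-like receptor signals, by -1.22.

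The TRAIL death receptors TNFRSF10A and TNFRSF10B changed by -1.44 and -1.17, while their ligand TNFSF10 rose by 1.02. TNFSF15, another ligand of the TNF family, changed by -1.74 after 4 h and by -4.63 after 24 h, against the same control arrays. The hyaluronan synthase HAS2 changed by -1.46. Among the 37 rises called under all 3 versions, the secreted protein CCN5 was at 0.67 after 4 h and 2.05 after 24 h, the clock factor DBP at 0.65 and 1.43, and TENT5A, an RNA nucleotidyltransferase, at 0.53 and 1.43.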
